A study of Mus musculus with 28 samples.

Results

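Chodl, Unc80, Grip2, Ptx4, Vtn, Susd2, Ggt5, Kera, Scube2 and Ccdc85a are 10 of the 22552 mouse genes listed in this series. They were chosen by their measured change in culture. In the libraries used for the choice, their transcripts were abundant in freshly sorted WT cells and nearly gone from proliferating WT cells. These fresh libraries also carried RNA of other cell types, as given below. The values used for this choice are those of 1 table, which holds 2 WT_Cul and 2 WT_FI libraries and is called the table of WT states here. All 10 were found by symbol in all 4 tables of the series. The series profiled polyA RNA of satellite cells, which are muscle's resident stem cells, to ask what the deacetylase SIRT1 does in them. Besides 10 ChIP and input samples, which were not analysed here, it holds 18 RNA libraries, namely 3 KO_FI, 2 KO_Cul, 2 KO_Diff, 5 WT_FI, 4 WT_Cul and 2 WT_Diff libraries. KO stands for SIRT1mKO mice, in which a Pax7 knock-in Cre (Pax7cre/+) recombines a floxed exon 4 of Sirt1, and WT for wild-type mice. Both have a C57Bl/6 background, and the labels do not say whether WT mice carried Cre. Recombination by this Cre is limited to cells that express, or descend from cells that expressed, Pax7. FI stands for cells sorted by FACS and taken fresh as quiescent cells, and Cul for cells made to proliferate in Hams F-10, in which 12.5 ng/mL bFGF and 20% fetal bovine serum were present. Diff stands for a further 24 hours with 2% horse serum. Ages are not given in the labels.

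Adult satellite cells rest between the muscle fibre and its basal lamina, hold the transcription factor Pax7, and leave quiescence within a short time of injury or culture. Quiescence is kept in part by signals from this niche, among them Notch ligands, calcitonin receptor ligands and matrix proteins, and genes that serve contact with the niche are commonly switched off when the cells enter the cycle. The 10 genes encode proteins of several kinds. Chodl (chondrolectin) and Susd2 (a sushi domain protein) span the plasma membrane, Unc80 is a large subunit of the NALCN sodium leak channel, and Grip2 is a PDZ scaffold that binds AMPA-type glutamate receptors. Vtn (vitronectin, bound by alpha-v integrins), Kera (keratocan, a small leucine-rich proteoglycan known from cornea and tendon), Ptx4 (a pentraxin) and Scube2 (which helps to release hedgehog ligands from cells) are secreted. Ggt5 is a cell surface enzyme that cleaves gamma-glutamyl groups, as in the conversion of leukotriene C4 to D4, and Ccdc85a is a coiled-coil protein of little known function.

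RefSeq's GRCm38.p6 promoter windows, from 250 bases before to 50 bases after the start of the gene, matched 7 of the 10 genes (Chodl, Unc80, Grip2, Vtn, Kera, Scube2 and Ccdc85a). The core of the site bound by RBPJ, the DNA-binding partner of Notch, is written TGGGAA, and it was searched on both strands because Notch signalling holds satellite cells in quiescence. It occurs in the windows of Chodl, Unc80, Vtn and Ccdc85a, 4 of 7, against 25.56% of all 32851 windows. The window with the most matches is that of Vtn, with 3, and Chodl, the most abundant of the 10 genes in fresh cells, has 1 match, which begins 194 bases before the start. The windows of Chodl (chr16:78930698-78930997, plus strand) and Vtn (chr11:78498870-78499169, plus strand) are shown 5′ to 3′ because these are the 2 genes with the highest levels in the FI table, with TGGGAA or its complement TTCCCA in capitals.
Chodl: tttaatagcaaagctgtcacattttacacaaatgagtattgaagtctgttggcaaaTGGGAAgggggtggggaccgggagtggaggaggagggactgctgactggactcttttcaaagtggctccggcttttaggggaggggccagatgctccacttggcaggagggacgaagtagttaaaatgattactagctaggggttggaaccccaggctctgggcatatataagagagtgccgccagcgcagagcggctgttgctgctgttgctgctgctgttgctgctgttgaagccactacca
Vtn: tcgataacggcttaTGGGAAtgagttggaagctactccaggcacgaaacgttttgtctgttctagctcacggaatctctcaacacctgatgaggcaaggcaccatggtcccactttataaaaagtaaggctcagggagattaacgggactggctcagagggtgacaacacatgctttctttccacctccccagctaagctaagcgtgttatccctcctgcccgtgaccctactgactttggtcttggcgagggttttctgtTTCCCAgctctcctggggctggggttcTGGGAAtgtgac
Of the 3 matches of Vtn, 1 begins 236 bases before the start, 1 lies on the other strand at base 12 after it, and 1 begins at base 39 after it. No match says only that these letters are not in a window: CAGCTG, an E-box read by MyoD, is in 0 of the 7 windows and in 16.3% of all windows, and TGANTCA, the AP-1 site with any base in the middle, is in 0 of 7 and in 7.81% of all. The windows also differ in CpG dinucleotides. Kera (chr10:97606955-97607254, plus strand) has 1 CpG, fewer than most windows, and Scube2 (chr7:109865630-109865929, minus strand) has 36, more than 93.8% of all windows, against a median of 7.0 with quartiles of 3.0 and 20.0. These 2 are shown with CpG in capitals because their levels ran in the same order across the fresh libraries, as given with those values.
Kera: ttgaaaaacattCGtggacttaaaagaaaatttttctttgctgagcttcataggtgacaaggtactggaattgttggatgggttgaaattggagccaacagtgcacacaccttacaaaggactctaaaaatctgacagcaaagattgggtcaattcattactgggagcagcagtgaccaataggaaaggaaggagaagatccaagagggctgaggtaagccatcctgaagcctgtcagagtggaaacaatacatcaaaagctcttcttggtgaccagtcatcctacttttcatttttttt
Scube2: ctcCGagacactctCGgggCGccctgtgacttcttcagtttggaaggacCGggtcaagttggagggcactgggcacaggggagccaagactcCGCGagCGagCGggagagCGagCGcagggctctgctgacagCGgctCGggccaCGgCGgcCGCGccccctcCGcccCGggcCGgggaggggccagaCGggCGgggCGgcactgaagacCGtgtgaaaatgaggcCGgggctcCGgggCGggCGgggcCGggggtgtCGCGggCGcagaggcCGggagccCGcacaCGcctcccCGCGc
The other windows hold 6 CpG (Chodl), 8 (Unc80), 9 (Vtn), 14 (Ccdc85a) and 16 (Grip2), so the count runs from 1 to 36 over the 7 windows.

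Library depth was 28010691 to 65324684 fragments in the FI table, 75674366 to 82590642 in Cul, 71858446 to 82825550 in Diff, while the libraries of WT states had 24254119 to 31643216. Nothing in the labels ties replicate libraries to different mice or cultures, and the p-values therefore reflect library-to-library spread, which may be technical. Sirt1 was present in every library: 63.4, 37.6 and 44.3 CPM (TMM-scaled fragments relative to library depth, comparable within a table) in KO_FI against 81.4, 50.6 and 47.4 CPM in WT_FI. It had 33.8 and 46.9 CPM in KO_Cul against 62.2 and 66.8 CPM in WT_Cul, and 41.4 and 28.8 CPM in KO_Diff against 52.1 and 28.2 CPM in WT_Diff. A total per gene cannot check the loss of 1 exon. Libraries are named by their index in the table, listed from index 0. The index 0 libraries of KO_FI and WT_FI stand apart from the other 4 of the FI table, since 8.10% and 8.16% of their fragment estimates were not whole numbers, against 2.42% to 2.81%. Summed markers of satellite cells (Pax7, Myf5, Cdh15, Itga7, Calcr and Vcam1) stood at 3084 to 4245 CPM in the 6 libraries of the FI table, and at 1307 and 1133 CPM in the 2 WT_FI libraries of the table of WT states. Those 2 WT_FI libraries carried more RNA of other cell types than the FI table did. They had 23590 and 17010 CPM of 8 fibroblast markers (2027 to 4409 CPM in the FI table), 5380 and 5473 CPM of 6 tenocyte markers (189.2 to 1659 CPM) and 17780 and 25900 CPM of 7 pericyte and smooth muscle markers (3054 to 7391 CPM). In these bulk libraries, fewer cells of a type and less RNA per cell cannot be told apart.

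In the table of WT states, which chose the genes, all 10 were 75.0-fold (Susd2) to 1084-fold (Ptx4) lower in WT_Cul than in WT_FI as a ratio of mean CPM, and these values are a description with no test. Chodl stood at 2.96 and 2.31 CPM in WT_Cul, against 499.5 and 460.6 CPM in WT_FI. Grip2, the next highest in fresh cells, stood at 1.20 and 1.58 CPM in WT_Cul, against 374 and 561 CPM in WT_FI. Kera stood at 0.720 and 1.23 CPM in WT_Cul, against 229.2 and 228.6 CPM in WT_FI. So these 3 genes kept a trace of RNA in culture, and every culture library lay far below both fresh ones. Unc80 and Ccdc85a were nearer to silence, at 0.160 and 0.0949 CPM (4 and 3 fragments) and at 0.120 and 0.0633 CPM (3 and 2 fragments) in WT_Cul, against 73.8 and 98.7 CPM and against 67.7 and 102 CPM in WT_FI. Ptx4 had 1 and 2 fragments in WT_Cul, against 1567 and 1392 fragments in WT_FI, a ratio of summed counts of 1049 with an exact binomial 95% interval of 359 to 5092 that covers counting error only. The log2 changes of the other genes were −7.74 for Scube2, −7.55 for Vtn, −7.01 for Ggt5 and −6.23 for Susd2, the last 2 being the smallest losses of the 10. Among the WT states, 28.6% of all 14680 genes tested passed the edgeR test, 16% did so as lower in WT_Cul, and for 70.9% the groups did not overlap. The size of the loss was less common. Of 11244 genes with at least 5 CPM in WT_FI, the 10 ranked from 9 (Ptx4) and 10 (Ccdc85a) to 195 (Susd2) by loss. The choice did not take every such gene, since 185 others lost at least as much as Susd2. The 8 with the greatest loss were Hbb-b1, Fam196b, Unc5d, Ostn, Ibsp, Glycam1, Hcn4 and Slc4a1, which include globin and anion exchanger genes of red blood cells.

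**Figure D1:**
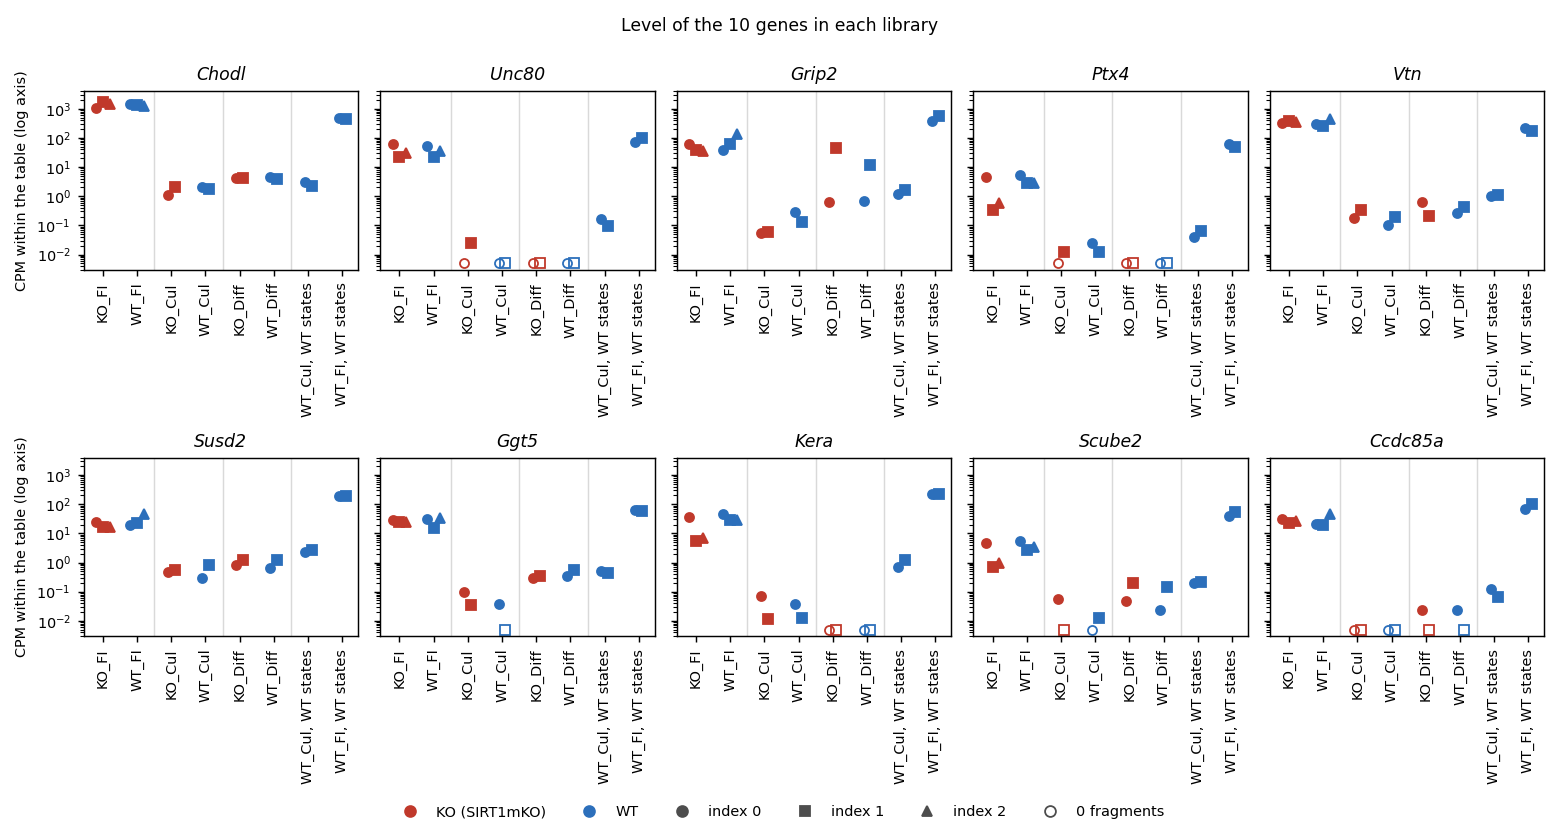
CPM of each gene within its table (log axis) in every library, KO in red and WT in blue, with the marker shape giving the index and open symbols at the foot standing for 0 fragments. Every gene has its highest levels in fresh libraries, Unc80, Ptx4 and Kera have 0 fragments in all 4 Diff libraries, and Grip2 is the gene whose Diff libraries come back, to 46.8 CPM in KO_Diff index 1 and 11.8 CPM in WT_Diff index 1.

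The loss can be tested in libraries that did not choose the genes, by joining the raw fragments of the 14 libraries of the FI, Cul and Diff tables in 1 edgeR fit. All 10 genes were lower in KO_Cul than in KO_FI and in WT_Cul than in WT_FI, with adjusted p of at most 0.00713 in KO and 0.00452 in WT (edgeR's quasi-likelihood test, Benjamini-Hochberg over 16698 genes). As background, 54.9% of all genes passed in KO, 29.3% as lower and 25.6% as higher in KO_Cul, and 53.5% passed in WT, 29.4% as lower and 24.1% as higher in WT_Cul. The 10 genes entered the fit through their fresh libraries, so the count of calls says little and the sizes carry the description. Each state is a separate table, so the state and the processing of its table cannot be told apart. The CPM given for each state were scaled within its own table. Sizes of change between states therefore rest on the joined fit or the joined fragments, not on ratios of these CPM. All 10 stayed lower and past the threshold in each genotype under the 9 alternatives run for each, which left out 1 library or the fresh index 0 pair, or changed the scaling, the filter or the tool, with the highest adjusted p at 0.0467 (KO, without KO_Cul index 1).

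Among the membrane and channel genes, Chodl had 1.09 and 2.02 CPM in KO_Cul and 2.00 and 1.81 CPM in WT_Cul, while fresh cells had 1043 to 1703 CPM in KO_FI and 1279 to 1411 CPM in WT_FI. That is a log2 change of −9.43 (SE 0.45) in KO and −9.10 (SE 0.45) in WT in the joined fit. The table of WT states gave −7.51. Unc80 had 0 and 2 fragments in KO_Cul and 0 in both WT_Cul libraries. Against a floor of 3 fragments per library, this makes Unc80 at least 734-fold lower in WT_Cul than in WT_FI, and in KO_Cul the ratio of summed counts was 2600 with a 95% interval of 719 to 21470. Besides Unc80, which was chosen for its loss, Nalcn and Unc79 were measured of the 4 genes of the NALCN channel list. Both fell in both genotypes and among the WT states. Nalcn, the pore, stood at −6.52 in KO and −7.45 in WT and Unc79 at −5.06 in KO and −9.82 in WT. Grip2 had 0.0552 and 0.0598 CPM in KO_Cul and 0.295 and 0.134 CPM in WT_Cul, against 36.9 to 61.5 CPM in KO_FI and 39.9 to 139.7 CPM in WT_FI (log2 −9.20, SE 2.06, in KO and −8.18, SE 1.91, in WT). Of 7 genes for GRIP-bound glutamate receptors and partners, 3 fell in both genotypes. These were the AMPA receptor subunits Gria1 (−6.25 in KO and −7.50 in WT), Gria2 (−7.73 and −8.05) and Gria4 (−9.35 and −9.73). For Gria2, Diff over Cul was estimated as 0 with no SE in both genotypes, so the size of its fall is uncertain. Another AMPA receptor subunit, Gria3, did not pass (−1.28 in KO, adjusted p = 0.200 and −1.15 in WT, adjusted p = 0.246, edgeR), nor did Pick1 or Gripap1. Grip1, the closest relative of Grip2, did not pass either (1.08 in KO, adjusted p = 0.128 and −0.38 in WT, adjusted p = 0.587, edgeR). Susd2 kept the largest share of its fresh level, at 0.469 and 0.562 CPM in KO_Cul and 0.295 and 0.815 CPM in WT_Cul, and its loss was the smallest of the 10 (log2 −4.83, SE 0.62, in KO and −5.39, SE 0.63, in WT). Of 23 measured relatives of the 10 genes, 3 rose and 10 fell in KO and 3 rose and 13 fell in WT. Layn (layilin), a lectin related to chondrolectin, was among those that rose (2.70 in KO, adjusted p = 0.0155, and 2.96 in WT, adjusted p = 0.0107, edgeR).

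Among the secreted proteins, Vtn had 0.179 and 0.335 CPM in KO_Cul and 0.103 and 0.195 CPM in WT_Cul, while fresh cells had 329 to 369.8 CPM in KO_FI and 255 to 429 CPM in WT_FI. Its log2 change was −9.99 (SE 0.65) in KO and −10.73 (SE 0.68) in WT. The receptors of vitronectin did not follow it as a group. Of 8 genes for receptors and partners, 4 rose and 3 fell in each genotype, among them Plaur, the urokinase receptor, which rose (4.57 in KO and 3.96 in WT), Itgb6 (3.79 and 3.35), and Itgb3, which fell (−3.77 and −4.95). Kera had 0.0690 and 0.0120 CPM in KO_Cul and 0.0384 and 0.0122 CPM in WT_Cul, 6 fragments over the KO_Cul and 4 over the WT_Cul libraries. Fresh cells had 2958 Kera fragments in KO_FI and 4436 in WT_FI, so the ratio of summed counts was 427.5 (95% interval 196 to 1166) in KO and 1197 (467 to 4397) in WT. All 10 small leucine-rich proteoglycans of the list, Kera included, fell in both genotypes, with a median of −6.14 in KO and −7.49 in WT beside −0.19 and −0.16 over all genes. In the table of WT states 9 of 10 fell (median −5.77), a count and a median that include Kera, which was chosen for its loss there. Prelp (−9.77 in KO and −10.04 in WT), Aspn (−9.70 and −9.33) and Omd (−5.36 and −6.94) had the smallest p of the list in WT or KO. Kera lies between Lum and Epyc in RefSeq's GRCm38.p6 gene order, with Dcn next to Lum, and these 3 neighbours, matrix proteoglycans like Kera, also fell. Lum had a log2 change of −5.69 in KO and −7.41 in WT, and Dcn −5.96 and −7.57. Lum and Dcn are also on the fibroblast marker list, and Fmod of the proteoglycan list is a tenocyte marker. The falls of these genes are therefore counted again with the marker lists below. Epyc had −6.11 (SE 2.09, adjusted p = 0.0422, edgeR) and −6.29 (SE 2.07, adjusted p = 0.0380), closer to the threshold. Its estimate for Diff over Cul was 0 with no SE in both genotypes, as for Unc80 in WT, which had 0 fragments there. The size of the fall of Epyc is therefore uncertain. Ptx4 had 1 fragment over the KO_Cul libraries and 3 over the WT_Cul libraries, against 338 in KO_FI and 482 in WT_FI (ratio of summed counts 293 with a 95% interval of 52.3 to 11610 in KO, and 173.5 with 59.0 to 844 in WT). Scube2 had 4 and 1 fragments, against 378 in KO_FI and 482 in WT_FI (ratio 82.0, 31.7 to 302, in KO, and 520.4, 93.0 to 20600, in WT). Of 10 hedgehog genes measured, 5 fell and 0 rose in KO, while 4 fell and 1 rose in WT. The ligand Dhh (−5.06 in KO and −5.22 in WT) and the factors Gli1 (−4.29 and −3.89) and Gli2 (−4.76 and −4.34) fell in both.

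Ggt5, the enzyme of the set, had 10 fragments over the KO_Cul libraries and 3 over the WT_Cul libraries, against 3752 in KO_FI and 3234 in WT_FI. The ratio of summed counts was 325 (95% interval 177 to 679) in KO and 1164 (398 to 5647) in WT. Most of the other glutathione and leukotriene enzymes rose. Of 9 measured, 6 rose and 2 fell in KO and 6 rose and 3 fell in WT, with median log2 changes of 1.87 and 1.60. Gss (1.80 and 1.60) and Gclm (3.91 and 4.22), which build glutathione, and Chac1 (4.25 and 3.84), which degrades it, were among those that rose. Ltc4s, which makes the leukotriene that Ggt5 cleaves, rose as well (3.50 and 4.11). Ggt5 lies between Ggt1 and Susd2 in RefSeq's GRCm38.p6 order, so 2 of the 10 genes are neighbours. Their neighbour Ggt1, which encodes a related enzyme, fell in WT (−3.59, adjusted p = 0.00619, edgeR) and did not pass in KO (−1.86, adjusted p = 0.0644). Ccdc85a had 0 fragments in all 4 Cul libraries, against 3805 fragments in KO_FI and 3079 in WT_FI, at least 472-fold lower in KO_Cul and at least 577-fold lower in WT_Cul.

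**Figure D2:**
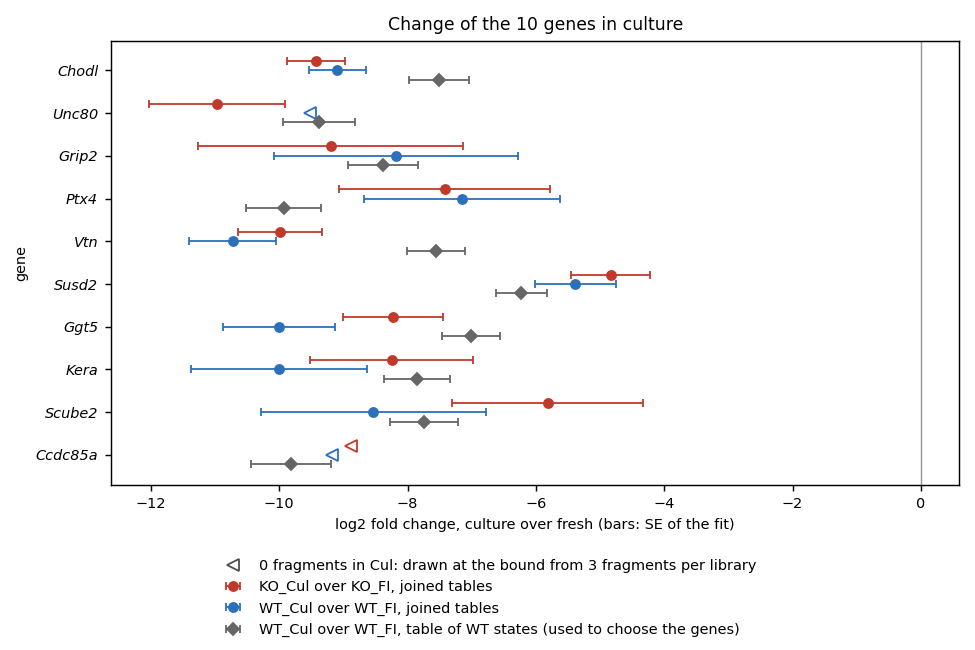
Log2 fold change of each gene in culture over fresh cells, with the SE of the fit, for KO and WT in the joined tables (circles) and for the table of WT states that chose the genes (diamonds), with open triangles at the bound that 3 fragments per library give where a Cul group had 0 fragments. All points lie left of 0, Susd2 is nearest to it at −4.83 in KO and −5.39 in WT, and Grip2 has the widest bars, with an SE of 2.06 in KO and 1.91 in WT.

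The label of quiescence was set against the marker lists, because several of these genes are also known from other cells of muscle. Of 20 quiescent satellite cell genes, 17 fell and 1 rose in KO_Cul, and 16 fell and 1 rose in WT_Cul, with medians of −3.45 and −3.33 and with Notch3 (−7.88 in KO and −8.41 in WT), the collagen gene Col5a3 (−4.79 and −5.11) and Pax7 (−3.32 and −2.80) among them. In the same contrast all 8 fibroblast, all 7 endothelial and all 7 pericyte and smooth muscle markers fell in both genotypes, and 4 of 6 tenocyte markers fell while Scx rose. In both genotypes, 4 of 5 macrophage and leukocyte and 4 of 6 Schwann and neural markers also fell. Summed, fibroblast markers stood at 61.9 and 45.8 CPM in KO_Cul and 17.7 and 12.7 CPM in WT_Cul. Pericyte and smooth muscle markers stood at 118 and 88.5 CPM in KO_Cul and 97.2 and 42.3 CPM in WT_Cul. Tenocyte markers stood at 60.5 to 75.1 CPM over the 4 libraries, of which Scx, the member that rose, gave 72.1 and 55.6 CPM in KO_Cul and 65.3 and 60.9 CPM in WT_Cul. Tnmd, the tenocyte membrane protein tenomodulin, was at 0 in index 0 of each genotype. Satellite cell markers stood at 1188 and 1059 CPM in KO_Cul and 1018 and 1103 CPM in WT_Cul. In the table of WT states, satellite cell markers summed to 1471 and 1182 CPM in WT_Cul and 1307 and 1133 CPM in WT_FI. Fibroblast markers summed there to 427.8 and 1132 CPM in WT_Cul, against 23590 and 17010 CPM in WT_FI. Pericyte and smooth muscle markers had 1711 and 1627 CPM, against 17780 and 25900 CPM. Notch3 (−5.18) and Col5a3 (−2.66) passed there as lower, while Pax7 (−1.49, adjusted p = 0.140, edgeR), Notch1, Fgfr4 and Vcam1 did not. The part of the other cells in the loss of the 10 genes was not tested.

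Levels in the 2 sets of fresh WT libraries separated the 10 genes. On the deposited FPKM scale, which is per length and scaled within a table, Chodl averaged 527 ± 30.1 FPKM in WT_FI of the FI table (SD, n = 3) and 191 ± 9.78 FPKM in WT_FI of the table of WT states (SD, n = 2). Vtn averaged 194 ± 53.5 and 119 ± 22.1 FPKM in the same order of tables, so both stood higher in the FI table, as the satellite cell markers did. Kera averaged 18.6 ± 5.78 FPKM in the FI table and 121 ± 0.511 FPKM in the table of WT states. Ptx4 averaged 2.50 ± 1.02 and 37.6 ± 5.98 FPKM, and Scube2 averaged 1.03 ± 0.413 and 12.8 ± 3.30 FPKM. Grip2 averaged 14.9 ± 9.61 and 87.7 ± 25.2 FPKM, and Susd2 averaged 9.14 ± 4.58 and 58.0 ± 0.265 FPKM. These 5 genes were thus higher in the table whose fresh libraries held more fibroblast, tenocyte and pericyte RNA. The gap was smaller for Unc80 (2.52 ± 1.08 and 6.00 ± 1.26 FPKM), Ggt5 (6.33 ± 2.34 and 14.7 ± 0.836 FPKM) and Ccdc85a (5.33 ± 2.69 and 15.5 ± 4.49 FPKM). Tables were scaled separately, so this difference was not tested. By FPKM in WT_FI of the FI table, Chodl came first and Vtn second, each apart from its neighbours, then Kera, Grip2, Susd2, Ggt5, Ccdc85a, Unc80 and Ptx4, each overlapping the next in its range, and Scube2 last, below Ptx4.

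KO_FI was compared with WT_FI to ask whether the loss of SIRT1 alters these genes in quiescent cells. None of the 10 passed, with adjusted p = 1.00 for each (edgeR's quasi-likelihood test, Benjamini-Hochberg over 15146 genes, 0 of which passed, or 0%, while 621 had an unadjusted p under 0.05 and DESeq2 called 114). The ranges of KO_FI and WT_FI overlapped for all 10 genes, and over all genes 9.22% did not overlap. The most abundant genes were close. Chodl had 1043, 1703 and 1452 CPM in KO_FI, against 1411, 1340 and 1279 CPM in WT_FI (log2 0.059, SE 0.21). Vtn had 329, 369.8 and 339 CPM in KO_FI, against 298, 255 and 429 CPM in WT_FI (log2 0.078, SE 0.21). Unc80 (log2 0.035, SE 0.48), Ggt5 (−0.044, SE 0.29) and Ccdc85a (−0.13, SE 0.36) also had estimates small beside their errors.

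Kera, Ptx4 and Scube2 had lower estimates, and their libraries did not move alike. Kera had 36.7, 5.38 and 7.19 CPM in KO_FI (indices 0, 1 and 2), against 47.7, 29.1 and 29.5 CPM in WT_FI (log2 −1.10, SE 0.77, unadjusted p = 0.201, edgeR). KO_FI was nearly level with WT_FI within index 0 (log2 ratio −0.38) and far below it within indices 1 and 2 (−2.43 and −2.04). Ptx4 had 4.47, 0.325 and 0.571 CPM in KO_FI, against 5.49, 2.88 and 2.89 CPM in WT_FI (log2 −1.05, SE 0.97), with ratios of −0.30, −3.15 and −2.34 within the indices. Scube2 had 4.67, 0.680 and 0.970 CPM in KO_FI, against 5.43, 2.60 and 3.33 CPM in WT_FI (log2 −0.83, SE 0.77), with ratios of −0.22, −1.93 and −1.78. The 3 genes put the 6 libraries in 1 order, WT_FI index 0, KO_FI index 0, WT_FI indices 2 and 1, KO_FI indices 2 and 1, an order that 1.02% of the 15146 genes tested had (154 genes). The summed tenocyte markers had the same order, at 1260, 189.2 and 211.4 CPM in KO_FI and 1659, 488 and 788.8 CPM in WT_FI, and so did 4 of the 6 single markers, Tnmd, Mkx, Comp and Fmod. Tnmd, for instance, had 35.9, 3.72 and 5.51 CPM in KO_FI, against 38.5, 22.6 and 26.7 CPM in WT_FI. The part of tenocyte RNA in the level of Kera, Ptx4 and Scube2 was not tested. FI libraries of 1 index deviated together, index 0 most clearly, so the index was also used as a block. With the index as a block and DESeq2, Kera passed as lower in KO_FI (log2 −1.63, adjusted p = 0.00127), while Ptx4 did not (−1.88, adjusted p = 0.0527) nor did Scube2 (−1.28, adjusted p = 0.168). That fit called more genes than the main edgeR fit, which called 0, as given in the last section. With the block in edgeR, Kera had −1.59 and adjusted p = 0.504, and without the index 0 pair it had −2.21 and adjusted p = 0.0940 in edgeR, so the call of Kera held only in DESeq2 with the block.

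Grip2 and Susd2 also had lower estimates in KO_FI, and these shrank without WT_FI index 2. Grip2 had 61.5, 38.6 and 36.9 CPM in KO_FI, against 39.9, 62.6 and 139.7 CPM in WT_FI (log2 −0.82, SE 0.48). Susd2 had 24.3, 16.4 and 17.1 CPM in KO_FI, against 19.5, 22.2 and 47.7 CPM in WT_FI (log2 −0.63, SE 0.38). Within indices 0, 1 and 2, the log2 ratios were 0.63, −0.70 and −1.92 for Grip2 and 0.32, −0.44 and −1.48 for Susd2. KO_FI indices 1 and 2 were the lowest libraries for both genes, as for Kera, Ptx4 and Scube2 and for 11.6% of genes tested. The other members did not have this. Grip2 and Susd2 both stood highest in WT_FI index 2, and without it the estimates were −0.16 for Grip2 and −0.11 for Susd2. In that library the pericyte and smooth muscle markers summed to 7391 CPM, against 3054 to 3605 CPM in KO_FI and 3076 and 3419 CPM in the other WT_FI libraries. Myh11, the smooth muscle myosin, had 762 CPM, 448 CPM and 505 CPM in KO_FI and 527 CPM, 725 CPM and 1876 CPM in WT_FI, and all 7 markers of the list were highest in WT_FI index 2. The full order of the 6 libraries was that of Susd2 for Myh11, 1 of the 7, an order that 0.185% of genes tested had, and none of the 7 had the order of Grip2. Ccdc85a was highest there too, at 31.2, 22.1 and 26.0 CPM in KO_FI and 20.8, 19.8 and 46.2 CPM in WT_FI, and so were Vtn, at 429 CPM, and Ggt5, at 34.4 CPM. WT_FI index 2 was thus the highest library for 5 of the 10 genes. With no share of all genes beside it, this count says little about the 10 genes. In WT_FI index 2 the endothelial markers also summed highest, at 640.7 CPM against 183 to 592.2 CPM in the other libraries. So did the macrophage and leukocyte markers, at 284.4 CPM against 120 to 205.2 CPM. The sums of the other lists did not peak there. Ccdc85a had the full order of the endothelial markers Cdh5 and Emcn (0.33% of genes tested). The other endothelial markers, Pecam1, Kdr, Flt1, Tie1 and Tek, had other orders. Vtn had the order of the pericyte marker Kcnj8 (0.165%), and the rest of that list (Pdgfrb, Rgs5, Abcc9, Cspg4, Acta2 and Myh11) did not. The part of RNA of any of these cell types in these levels was not tested.

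**Figure D3:**
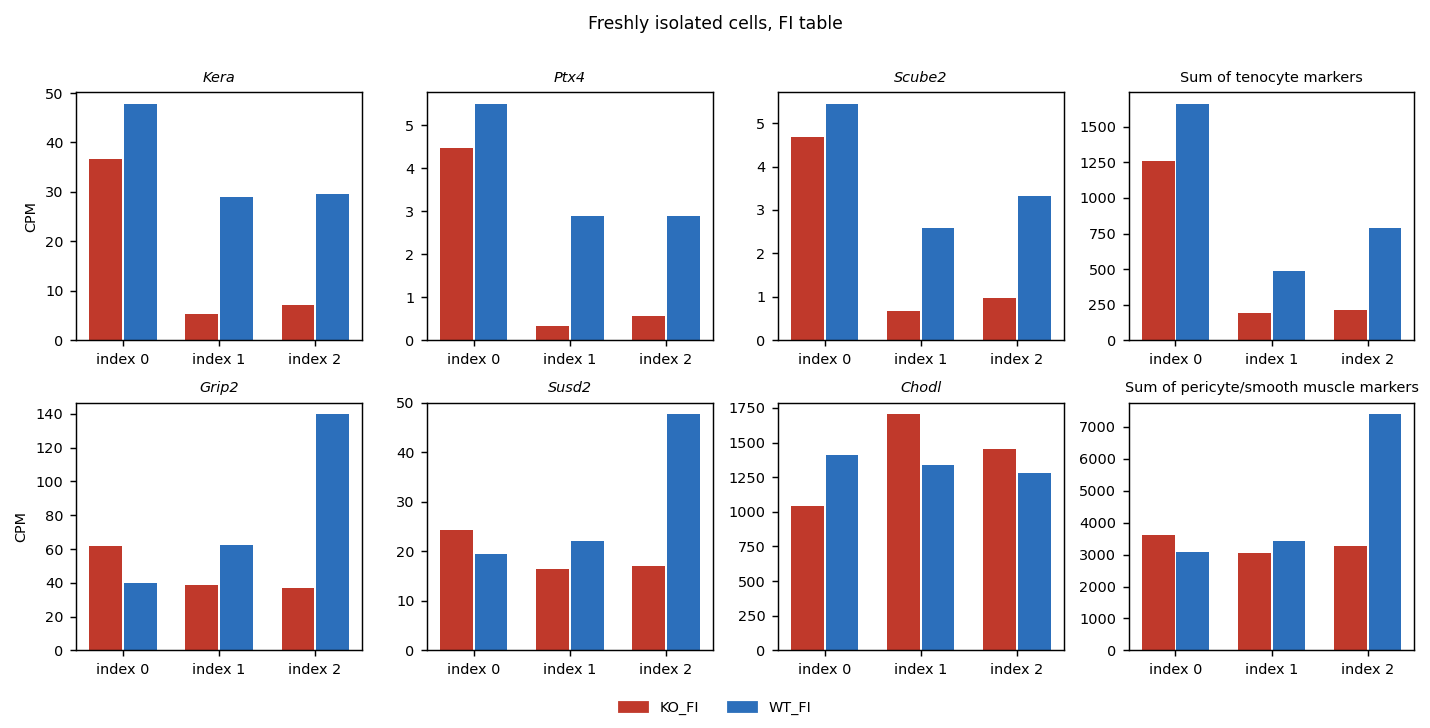
Bars of CPM per library in the FI table by index, KO_FI in red to the left of WT_FI in blue, for Kera, Ptx4, Scube2 and the sum of 6 tenocyte markers (upper row) and for Grip2, Susd2, Chodl and the sum of 7 pericyte and smooth muscle markers (lower row). The upper panels share 1 order of the 6 libraries, and Grip2, Susd2 and the pericyte sum peak in WT_FI index 2, at 139.7, 47.7 and 7391 CPM, while Chodl does not.

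In proliferating cells, 4 of the 10 genes had enough fragments to be tested between genotypes (Chodl, Grip2, Vtn and Susd2), and none of them passed, nor did any of 13963 genes in edgeR (0%, with 112 at an unadjusted p under 0.05 and 3 called by DESeq2). Grip2, the single one of the 4 whose groups did not overlap, had 4 and 5 fragments in KO_Cul, against 23 and 11 in WT_Cul (log2 −1.87, SE 0.87, adjusted p = 1.00), and 23% of all genes tested did not overlap. The estimates of Chodl (−0.29, SE 0.49), Vtn (0.79, SE 0.79) and Susd2 (−0.11, SE 0.71) were within their errors. The other 6 genes had between 0 and 7 fragments in a library, where no difference between genotypes was detectable at this depth. For none of the 10 did the difference between genotypes in the change from fresh to culture pass (0 of 16698 genes passed as different, 0%, with 196 at an unadjusted p under 0.05 in edgeR and 0 called by DESeq2). The closest was Ggt5 (KO minus WT 1.77, SE 1.02, unadjusted p = 0.110, edgeR).

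The Diff libraries show whether the 10 genes came back after 24 hours in differentiation medium, and they fell into 3 kinds. Unc80, Kera and Ptx4 had 0 fragments in all 4 Diff libraries, and Ccdc85a had 2 fragments in KO_Diff and 2 in WT_Diff, all in index 0. Against 3 fragments per library, Unc80 was at least 783.5-fold lower in KO_Diff than in KO_FI and at least 710.4-fold lower in WT_Diff than in WT_FI, and Kera at least 342-fold and 685-fold lower, so no return of these genes was detectable at this depth. Chodl, Vtn, Susd2, Ggt5 and Scube2 held low levels, from 0.0228 CPM for Scube2 to 4.46 CPM for Chodl. Grip2 alone came back toward the level of fresh cells, in 1 library of each genotype.

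Chodl was tightly held in Diff, at 4.20 and 4.08 CPM in KO_Diff and 4.46 and 3.99 CPM in WT_Diff, while Cul libraries had 1.09 to 2.02 CPM. The rise passed in KO (log2 1.33, SE 0.33, adjusted p = 0.0469) and not in WT (1.07, SE 0.32, adjusted p = 0.0954), in an edgeR fit where 4.13% of 16698 genes passed in KO and 3.11% in WT (3.29% and 2.57% as higher, 0.844% and 0.545% as lower). The call in KO ended when any 1 of the 4 KO libraries was left out (adjusted p 0.0611 to 0.301) and when low counts were not filtered (0.0511), while DESeq2 called the rise in both genotypes. Ggt5 had 0.302 and 0.341 CPM in KO_Diff and 0.353 and 0.558 CPM in WT_Diff, against 0.0966 and 0.0359 CPM in KO_Cul and 0.0384 and 0 CPM in WT_Cul. It rose in WT (log2 4.37, SE 0.81, adjusted p = 0.0206) and did not pass in KO (2.17, SE 0.69, adjusted p = 0.0991), and the call in WT ended without WT_Cul index 0, WT_Cul index 1 or WT_Diff index 1 (adjusted p 0.0655 to 0.0925). DESeq2 called the rise of Ggt5 in KO too (2.20, adjusted p = 0.0128). The difference between genotypes in this rise did not pass (−2.19, SE 1.09, unadjusted p = 0.0706, where 0 of 16698 genes passed, 0%, 245 had an unadjusted p under 0.05 in edgeR and DESeq2 called 0). Vtn (0.65 in KO and 1.07 in WT), Susd2 (0.93 and 0.62) and Scube2 (2.00 and 3.30) had higher estimates in Diff that did not pass (adjusted p 0.270 to 0.542). Chodl, Vtn, Susd2, Ggt5 and Scube2 all remained below fresh cells in both genotypes, by 3.82 (Scube2) to 9.35 (Vtn) on the log2 scale in KO and by 4.76 (Susd2) to 9.66 (Vtn) in WT. Of these calls, that of Scube2 ended in KO without KO_FI index 0 (adjusted p = 0.105), either KO_Diff library (0.153 without index 0 and 0.0577 without index 1) or the index 0 pair of FI libraries (0.120), and in WT without WT_Diff index 0 (0.0574). As background, 47.7% of genes passed in KO_Diff against KO_FI, 23.2% as lower and 24.5% as higher, and 48.6% in WT_Diff against WT_FI, 24.9% as lower and 23.6% as higher.

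Grip2 rose in 1 library per genotype. It had 0.639 and 46.8 CPM in KO_Diff (indices 0 and 1) and 0.672 and 11.8 CPM in WT_Diff, against 0.0552 and 0.0598 CPM in KO_Cul and 0.295 and 0.134 CPM in WT_Cul. In fragments, the index 1 libraries held 3566 in KO_Diff and 801 in WT_Diff, and the index 0 libraries held 55 and 59. The rise over Cul passed in KO (log2 8.54, SE 2.05, adjusted p = 0.0447) and not in WT (4.72, SE 1.69, adjusted p = 0.141). The call in KO ended without KO_Cul index 0 (0.275), KO_Cul index 1 (0.162) or KO_Diff index 1 (0.433), and without a filter on low counts (0.0511). Compared with fresh cells, Grip2 in Diff did not pass in KO (−0.66, SE 1.29, adjusted p = 0.690) or in WT (−3.46, SE 1.48, adjusted p = 0.0732), the single gene of the 10 of which this was true. Without KO_Diff index 1 it was lower than in KO_FI (−5.83, adjusted p = 0.0189), without WT_Diff index 1 lower than in WT_FI (−6.58, adjusted p = 0.0340), and without KO_Diff index 0 the estimate in KO turned to 0.31. DESeq2 called Grip2 in WT_Diff both as higher than in WT_Cul (4.78, adjusted p = 0.00496) and as lower than in WT_FI (−3.54, adjusted p = 0.00711), and without WT_Diff index 0 the rise over WT_Cul passed in edgeR (5.68, adjusted p = 0.0348). Markers of myofibres ran with it: Ckm, Acta1, Myh1, Myh4, Tnnt3 and Tnni2 summed to 124.4 and 13220 CPM in KO_Diff and to 53.6 and 6630 CPM in WT_Diff, against 32.6 to 52.6 CPM in the Cul libraries. The pericyte and smooth muscle markers summed to 275.8 and 3173 CPM in KO_Diff and to 156.7 and 1557 CPM in WT_Diff, but Acta2 alone made up 148.4 and 2972 CPM of this in KO_Diff and 62.8 and 1409 CPM in WT_Diff. Of the other members, Myh11 had 0.976 and 0.682 CPM in KO_Diff and 0.239 and 0.396 CPM in WT_Diff. Rgs5 had 1 and 2 fragments in KO_Diff and 0 in both WT_Diff libraries. Estimates of Diff over Cul were higher for Abcc9 (log2 7.82 in KO and 4.04 in WT), Pdgfrb (2.06 and 1.29) and Cspg4 (1.32 and 1.67), but none passed. Those of Rgs5 and Myh11 were lower in both genotypes, and that of Kcnj8 differed in sign. The part of the myofibre markers and of the pericyte and smooth muscle markers, Acta2 included, in the level of Grip2 was not tested. The difference of Grip2 between genotypes in Diff did not pass (log2 1.93, SE 2.06, adjusted p = 1.00) and turned to −3.22 without KO_Diff index 1. Grip1 did not pass in Diff over Cul in KO (1.67, adjusted p = 0.148) or in WT (1.38, adjusted p = 0.223, edgeR).

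Between KO_Diff and WT_Diff, 6 of the 10 genes could be tested and none passed, as was true of all 14482 genes in edgeR (0%, with 27 at an unadjusted p under 0.05 and 0 called by DESeq2). Ggt5 was the single one of the 6 whose groups did not overlap, lower in KO_Diff (log2 −0.50, SE 0.79), and 13.2% of all genes tested did not overlap. Chodl (−0.030, SE 0.50), Vtn (0.34, SE 0.93), Susd2 (0.20, SE 0.72) and Scube2 (0.53, SE 1.37) had estimates within their errors.

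**Figure D4:**
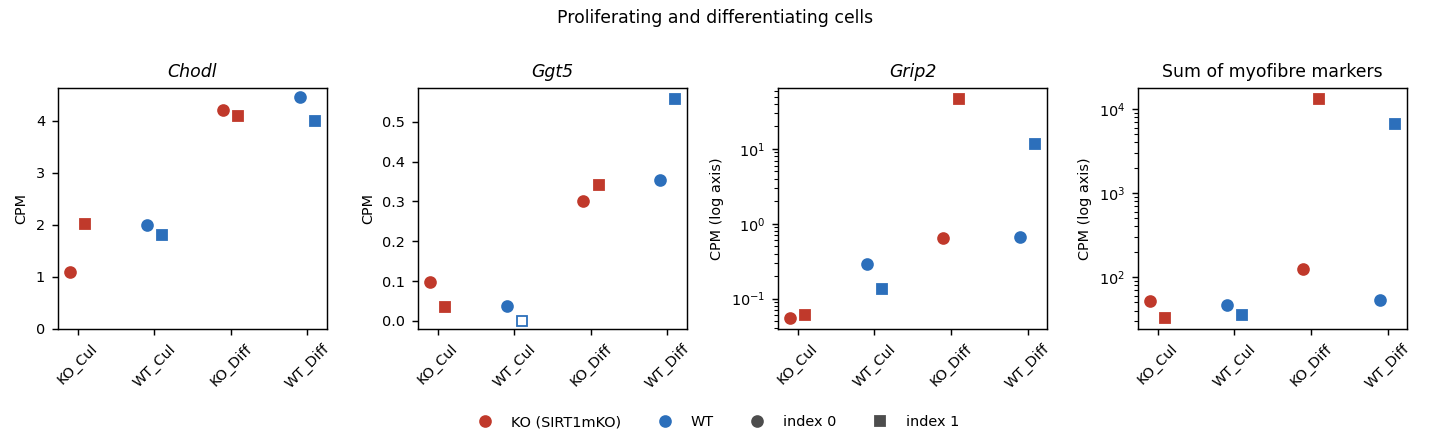
CPM per library of Chodl and Ggt5 (linear axes) and of Grip2 and the sum of 6 myofibre markers (log axes) in proliferating and differentiating cells, KO in red and WT in blue, with circles for index 0 and squares for index 1 and an open symbol for 0 fragments. Chodl lies at 3.99 to 4.46 CPM in all 4 Diff libraries, above the 1.09 to 2.02 CPM of Cul, while Grip2 and the myofibre sum are high in the index 1 libraries of Diff alone.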

How the data were processed

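PolyA RNA-seq tables of 18 libraries were used. Per the file headers, the deposited tables hold estimated counts (raw fragments per gene) and FPKM, which the authors scaled separately for each table. TopHat, Bowtie, Cuffdiff and the mm9 build are named in the submitters' processing notes, with versions not given in the sources used here, and whether counting used strand is not given either. Tables name libraries by an index from 0, not by the labels' number, and the state of the Cul and Diff tables comes from the table's name alone. Per table, 12 to 27 genes whose status was not OK in some library were left out.

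The estimated counts, 1.42% to 8.16% of which were not whole (tolerance 0.01), were rounded and tested with edgeR 4.0.16 (R 4.3.3; TMM, filterByExpr, robust quasi-likelihood fit, Benjamini-Hochberg, threshold 0.05), within each table and in 1 joined fit of 14 libraries. DESeq2 1.42.0, limma 3.58.1 on log2(FPKM + 1) or log2(FPKM + 0.1), RLE factors, no filter, an index block and leaving out each library were alternatives. Leaving out the fresh index 0 pair and the block in DESeq2 were chosen after seeing the data. The procedure was tested on simulated data. Intervals and floors (3 fragments per library) cover counting error only.

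Deviations of same-index FI libraries from their group means correlated across genes (r = 0.866, 0.683 and 0.584 for indices 0, 1 and 2), so the index was taken to pair them. WT_FI index 1 correlated with KO_FI index 2 nearly as well (r = 0.537), so only index 0 is clearly set apart. No 2 libraries of a group agreed within sampling noise (chi-square per degree of freedom of at least 26.9). The text names Sirt1, all 10 genes, Pax7 and up to 3 genes per list by smallest p. Grip1, Gria3, Pick1, Gripap1, Layn, Ltc4s, Ggt1, Dcn, Lum, Epyc, Scx and the single markers were named after their values were seen. The 10 genes and the lists were chosen with earlier results of these data known.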

Additional observations from a re-analysis of the deposited data

How the results depend on the processing

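The number of genes called moved with the method more than the 10 genes did. For KO_FI against WT_FI, where the main count was 0, DESeq2 called 114, limma 1 (pseudocount 1) and 3 (pseudocount 0.1), the replicate block with DESeq2 258, and edgeR without the index 0 pair 1. For KO_Cul against WT_Cul (main count 0), DESeq2 called 3, limma 5 and 10, and the replicate block 3. For KO_Diff against WT_Diff (main count 0), the replicate block called 147 and with DESeq2 99. In Cul and Diff the libraries share only an index, in 2 pairs each, so their block is no pairing by design. Deviations of same-index libraries correlated there too, with r = 0.732 in Cul and r = 0.787 in Diff. With 2 libraries a group, cross-index values are the same with the sign turned. For Diff over Cul, DESeq2 called 2283 in KO and 2220 in WT. Leaving out 1 library gave 2063 to 8050 calls in the table of WT states, 6368 to 8132 for KO_Cul and 5863 to 8259 for WT_Cul over fresh cells, 5948 to 6731 for KO_Diff and 6491 to 7868 for WT_Diff over fresh cells, 0 to 1683 for KO_Diff over KO_Cul, 5 to 3829 for WT_Diff over WT_Cul, and 0 to 0 for the genotype comparisons. RLE factors moved the median of all genes by −0.14 in WT and −0.12 in KO for Cul over fresh cells and by −0.13 in each genotype for Diff over fresh cells.

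Signs turned only for estimates near 0 or resting on 1 library, and the cause was not tested. For KO_FI over WT_FI, Unc80 turned to −0.0063 and −0.016 in limma, −0.0096 in the replicate block, −0.018 in that block with DESeq2 and −0.17 without the index 0 pair, and Ggt5 to 0.0097, 0.022, 0.023 and 0.017 in the first 4 of these. Susd2 in Cul turned to 0.017 in the block. Leaving out 1 library gave, for KO_FI over WT_FI, −0.51 to 0.38 for Unc80, −0.11 to 0.24 for Chodl, −0.32 to 0.16 for Ggt5, −0.078 to 0.33 for Vtn and −0.34 to 0.38 for Ccdc85a. It gave −0.81 to 0.067 for Chodl and −0.67 to 0.80 for Susd2 in Cul. In Diff it gave −0.67 to 0.96 for Vtn, −0.11 to 0.062 for Chodl, −3.22 to 5.13 for Grip2, −0.17 to 0.71 for Susd2 and −0.78 to 2.33 for Scube2. It gave −0.38 to 1.24 for Vtn in KO_Diff over KO_Cul, −5.83 to 0.31 for Grip2 in KO_Diff over KO_FI, and −1.35 to 6.94 for the genotype difference of Grip2 in Diff over Cul. Apart from Kera, the block changed no call of the 10 genes in fresh cells. With 2 libraries a group in Cul and Diff, and 0 to 7 fragments a library for 6 of the genes in Cul, small differences between genotypes were not detectable.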
